A study of Mus musculus with 18 samples.

Results

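The 7 genes Zfp352, Tcstv1, Tcstv3, Usp17la, Usp17lb, Usp17lc and Tmem92 were described as genes of the 2-cell-like state that lie outside the Zscan4 cluster. They were taken by gene name from the 54446 gene rows of the count files, through the Ensembl identifiers of GENCODE M21, and all 7 had a row. They were selected on their measured read counts in these data, which were lower in libraries labelled Tet2-KO than in WT, so every difference between these genotypes in the 7 genes is given as a description, with no test. Nascent RNA was measured in mouse embryonic stem (mES) cells, which are cultured cells of the early embryo that can form all tissues of the body. The cells were WT or carried a homozygous loss of Tet2, a dioxygenase that oxidizes 5-methylcytosine, and were labelled with 5-ethynyl uridine (EU) for 10, 20 or 40 min. EU enters RNA as it is made and lets that RNA be captured. Each of the 6 combinations had 3 replicates, for 18 libraries in all. Both genotypes grew in medium with serum, LIF and the inhibitors CHIR99021 and PD0325901 and were passaged on gelatin before labelling to clear feeder cells. Both lines were gifts from a single laboratory and no further clones are named, so p-values measure the spread between samples of these lines, which may be technical.

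Between 17931614 and 23069143 reads per library fell on genes and between 44162 and 512186 on the ERCC spike-in, synthetic RNAs added in proportion to total RNA. Tet2 itself still had reads in the libraries labelled Tet2-KO, with 9730 to 13011 reads per library against 13117 to 17092 in WT, or 530 to 643 against 589 to 741 reads per 1000000 gene reads (RPM). Whether an exon is missing cannot be read from a total over the whole gene, so the genotype of a library is that of its label throughout. Of 12 genes that mark mES cells, 11 had reads in every library and Sox2 was at 0 in all. Reads that could not be assigned to a single gene, 2.32% to 2.50% of all reads, are not in the counts. The 0 in Sox2 is therefore not read as absence of its RNA, and its cause was not tested. The summed share of the 12 genes was 3223 to 3392 RPM in WT and 2307 to 2430 in Tet2-KO-labelled libraries. The genes differed in size and side. As a share, 9 of the 11 tested were lower and 2 higher (edgeR, adjusted p under 0.05). On the log2 scale they ranged from -2.25 in Zfp42 to 0.25, with -0.47 in Tfcp2l1, -0.12 in Nanog and -0.06 in Esrrb. Per ERCC read, 1 was lower, 7 were higher and 3 did not pass, beside 4.15% lower and 80.5% higher over all genes tested. The summed share of 14 genes of feeder fibroblasts was 1068 to 1163 RPM in WT, where 11 had reads in every library and Lum was at 0, and 903 to 1024 in Tet2-KO-labelled libraries, where 10 had. Fn1, fibronectin, holds most of that sum, with 1020 to 1106 RPM in WT and 843 to 970 in the other genotype. Averaged over labelling times, 2 of the 9 feeder genes tested were lower as a share in Tet2-KO-labelled libraries, 3 were higher and 4 did not pass (edgeR, adjusted p under 0.05). The lower ones were Pdgfrb, at -1.57 ± 0.11 (SE) on the log2 scale, and Fn1, at -0.24 ± 0.01. The higher ones were the collagen genes Col3a1, at 1.05 ± 0.29, and Col1a1, at 0.40 ± 0.11, and Vim, at 0.10 ± 0.04. The sign changed with labelling time, and Col1a1 was at -1.19 ± 0.18 at 10 min and 2.05 ± 0.20 at 20 min. All 9 lay below 0 at 10 min, and 3 below and 6 above 0 at 20 min. The part of these differences in the results below was not tested.

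In cultures of mES cells, a small and changing share of the cells passes through a state that resembles the embryo at the 2-cell stage, when the zygotic genome is first transcribed. Such cells transcribe the retrotransposon MERVL and a group of genes that are silent in most mES cells, under the transcription factor Dux. The Zscan4 cluster is the best known of these genes. Zfp352 encodes a zinc finger protein. Tcstv1 and Tcstv3 belong to a small family named for its variable expression at the 2-cell stage. The Usp17l genes encode deubiquitinating enzymes, which remove ubiquitin from proteins, and Tmem92 encodes a membrane protein. A bulk library cannot tell fewer cells in this state from less RNA per cell.

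All 7 genes are annotated as protein-coding on mm10. Zfp352 (ENSMUSG00000070902) is at chr4:90218820-90225702 on the plus strand and Tmem92 (ENSMUSG00000075610) at chr11:94777217-94782703 on the minus strand. Tcstv1 (ENSMUSG00000096284) is at chr13:119893388-119894785 on the minus strand and Tcstv3 (ENSMUSG00000095821) at chr13:120316878-120318178 on the plus strand. Usp17lb (ENSMUSG00000062369), at chr7:104840257-104842603 on the minus strand, and Usp17la (ENSMUSG00000054568), at chr7:104857009-104862667 on the plus strand, are neighbours that point away from each other. Usp17lc (ENSMUSG00000058976), at chr7:103415072-103419880 on the plus strand, lies in a separate stretch of the same chromosome.

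The RefSeq table of promoters (GRCm38.p6) held windows for 4 of the 7 genes. The 250 bases upstream of the RefSeq start of the 3 Usp17l genes are shown because they let their likeness be read directly. Capitals mark the longest run that all 3 share, of 29 bases, and every TATAAA, and each sequence is written in the direction of its gene. The window of Usp17la is chr7:104856766-104857015 (plus strand), that of Usp17lb chr7:104842584-104842833 (minus strand) and that of Usp17lc chr7:103416446-103416695 (plus strand).
Usp17la: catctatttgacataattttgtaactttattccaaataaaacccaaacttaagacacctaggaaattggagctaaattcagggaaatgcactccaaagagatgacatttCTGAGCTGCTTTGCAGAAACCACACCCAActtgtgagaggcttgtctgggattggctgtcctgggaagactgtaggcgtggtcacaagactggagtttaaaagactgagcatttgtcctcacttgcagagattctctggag
Usp17lb: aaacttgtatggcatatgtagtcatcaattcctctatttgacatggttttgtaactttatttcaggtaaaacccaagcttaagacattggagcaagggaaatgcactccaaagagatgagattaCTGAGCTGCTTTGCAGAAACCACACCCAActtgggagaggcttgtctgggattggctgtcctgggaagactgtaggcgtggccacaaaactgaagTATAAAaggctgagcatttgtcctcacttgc
Usp17lc: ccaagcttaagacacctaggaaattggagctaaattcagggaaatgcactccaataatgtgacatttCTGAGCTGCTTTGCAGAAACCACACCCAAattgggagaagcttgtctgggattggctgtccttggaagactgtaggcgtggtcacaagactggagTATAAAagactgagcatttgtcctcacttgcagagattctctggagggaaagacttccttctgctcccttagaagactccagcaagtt
The shared run begins at position -141 from the start in Usp17la, -126 in Usp17lb and -183 in Usp17lc. TATAAA begins at position -31 in Usp17lb and -88 in Usp17lc, and these letters are not in the window of Usp17la. By global alignment the windows of Usp17la and Usp17lb were 72.9% identical, those of Usp17la and Usp17lc 67.8% and those of Usp17lb and Usp17lc 53.0%. These percentages are over whole alignments of 280, 292 and 315 positions, so ends without a partner count as differences. The shared run lies at different distances from the 3 RefSeq starts. The percentages and the positions of TATAAA thus depend in part on where each start is placed, and understate the likeness of the stretches that overlap.

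The window of Zfp352, chr4:90218570-90218819 on the plus strand, is shown because it carries a tandem repeat. Capitals mark GACAACACAC, the most frequent 10-base run in it, looked for after the sequence was seen.
Zfp352: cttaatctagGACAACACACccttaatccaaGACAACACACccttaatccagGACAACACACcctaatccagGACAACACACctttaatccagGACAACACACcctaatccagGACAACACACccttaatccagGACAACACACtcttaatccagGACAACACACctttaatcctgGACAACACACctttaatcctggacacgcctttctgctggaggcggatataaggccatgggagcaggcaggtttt
The run occurs 9 times in it. Over both strands of the 32851 promoter windows of the table, which reach 50 bases past each start, GACAACACAC occurred in 17, or 0.0517%, and at least 2 times in 2. TATAAA occurred in 13.6% of the windows, and among the 4 windows of these genes in those of Usp17lb and Usp17lc. The palindromic form of the Dux motif that was searched occurred in 11 of all windows, or 0.0335%, and in none of the 4.

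How alike the genes are bears on their counts, because reads that align to several places were left out of the counts on genes. The longest coding sequences of Usp17la and Usp17lc were 90.6% identical, those of Usp17la and Usp17lb 81.1%, and those of Tcstv1 and Tcstv3 93.6%. Of the different 50-base words in the annotated transcripts, 44.7% in Usp17lc were also found in transcripts of other genes, 41.5% in those of Usp17ld alone. The share was 20.1% in Usp17la, 21.4% in Usp17lb, 15.0% in Tcstv1 and 31.4% in Tcstv3. It was 7.09% in Zfp352 and 1.93% in Tmem92. The counts of the Usp17l and Tcstv genes are therefore less certain than those of the other members. Usp17lc also spans Gm25774, which had 0 reads in the 18 libraries.

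Reads on the 7 genes together were 166 to 239 per library in WT and 26 to 41 per library in those labelled Tet2-KO. As a share of the library, the sum in WT at 10, 20 and 40 min was 9.65 ± 0.764 (SD, n = 3), 9.31 ± 1.58 and 10.4 ± 0.326 RPM. The corresponding shares in Tet2-KO-labelled libraries were 1.66 ± 0.429, 1.77 ± 0.264 and 1.70 ± 0.230. The genotypes did not overlap at any labelling time. From summed reads, the share in WT was 5.86 times that in the other genotype (95% counting interval 4.73 to 7.33) at 10 min, 5.22 (4.22 to 6.52) at 20 min and 6.10 (4.92 to 7.63) at 40 min. These intervals are exact binomial ones and cover counting error only, since no molecular identifiers are described and reads may be copies of 1 molecule.

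Calibrated by the spike-in, the same sum in WT at the 3 labelling times was 45.0 ± 3.55 (SD, n = 3), 138 ± 31.5 and 256 ± 3.68 reads per 100000 ERCC reads. Libraries labelled Tet2-KO had 15.9 ± 4.96, 36.6 ± 7.27 and 67.7 ± 13.9. On this scale the ratios of WT to the other genotype were 2.86 (2.31 to 3.57), 3.72 (3.01 to 4.65) and 3.81 (3.07 to 4.76). The ratios per ERCC read are smaller than those of the shares because the Tet2-KO-labelled libraries had more gene reads per ERCC read. Over the 19910 genes that passed the filter on low counts (edgeR's filterByExpr, minimum count 10), the median of the log2 differences (Tet2-KO-labelled libraries minus WT), averaged over the 3 labelling times, was 0.70 per ERCC read and -0.04 as a share.

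**Figure D1:**
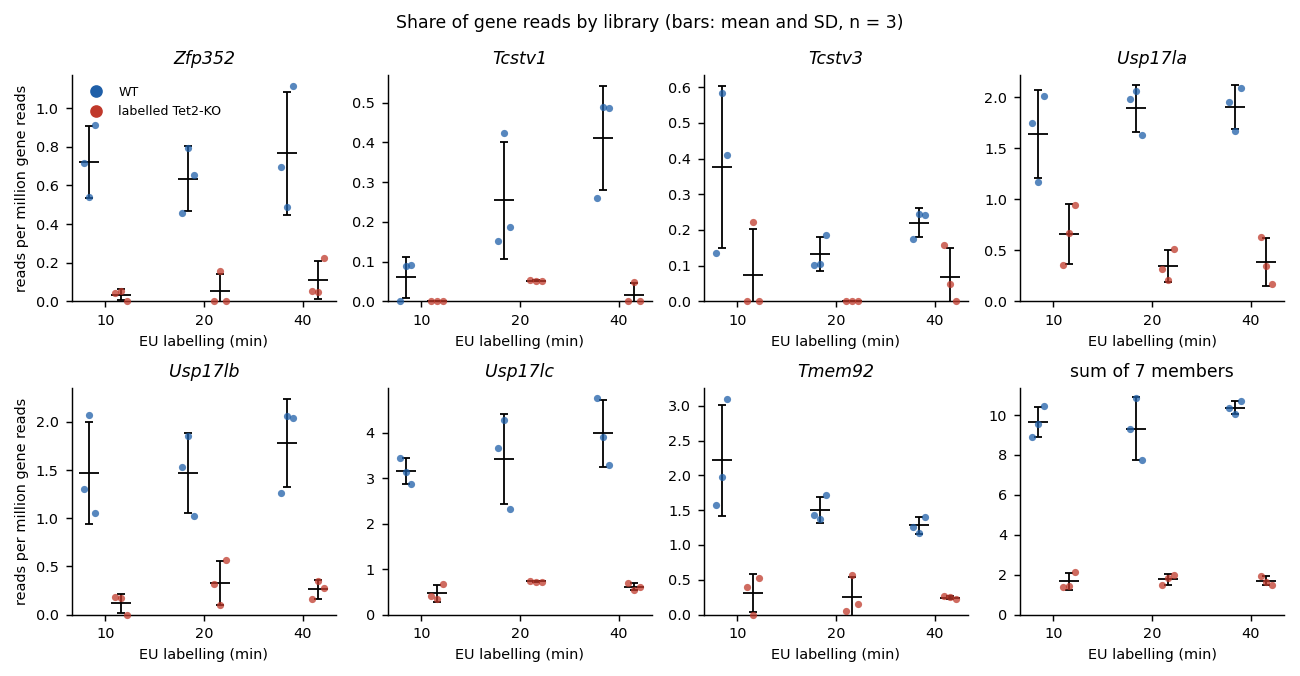
RPM (vertical axis, from 0) by EU labelling time (horizontal axis, min) for each of the 7 genes and their sum. Each point is a library, and bars give the mean and SD of 3 libraries, cut at 0. The sum in WT sits between 7.73 and 10.9 and that in Tet2-KO-labelled libraries between 1.38 and 2.15.

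Zfp352, the zinc finger gene, had 16, 12 and 20 reads in the WT libraries at 10 min, 9, 15 and 14 at 20 min and 16, 10 and 23 at 40 min. Libraries labelled Tet2-KO had 1, 1 and 0 reads at 10 min, 0, 3 and 0 at 20 min and 1, 1 and 4 at 40 min. At each labelling time every WT library was above every library of the other genotype on both scales, and 3 of the 9 Tet2-KO-labelled libraries held no read. The log2 difference averaged over labelling times was -2.77 ± 0.48 (SE, n = 9 against 9) per ERCC read and -3.48 ± 0.45 as a share, the largest among the members that passed the filter on both scales. It rests on 11 reads in Tet2-KO-labelled libraries, and the one at 20 min with 3 of them decides its size. Without that library, replicate 2, the differences were -4.12 and -4.56. Over all labelling times the share of Zfp352 in WT was 11.2 times that in Tet2-KO-labelled libraries, with a counting interval of 6.08 to 23.0.

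Tcstv1 had the fewest reads of the 7 genes, with 0, 2 and 2 reads in WT at 10 min, 3, 8 and 4 at 20 min and 6, 10 and 10 at 40 min. The Tet2-KO-labelled libraries held 0, 0 and 0 reads, then 1, 1 and 1, then 0, 1 and 0. Zero reads at 10 min over these 3 libraries allow up to 0.0504 RPM. At 10 min the genotypes overlapped, since a WT library was also at 0. With 3 counts set in place of 0 for the group, the summed share in WT would be 1.19 times that in the other genotype. Per ERCC read it would be 0.583 times. Neither ratio covers the counting error of the WT reads, so neither is a lower bound. At 40 min the share in WT was 23.2 times that in the other genotype, with a counting interval of 3.81 to 949.8 that reflects the single read on the other side.

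Its relative Tcstv3 had 3, 13 and 9 reads in WT at 10 min, 2, 2 and 4 at 20 min and 4, 5 and 5 at 40 min. Libraries labelled Tet2-KO had 0, 4 and 0 reads, then 0, 0 and 0, then 3, 1 and 0. The shares overlapped at 10 min, where the library with 4 reads was above the WT library with 3, and were apart at 20 and 40 min, while per ERCC read they also overlapped at 40 min. With 3 counts set in place of the 0 reads at 20 min, the share in WT would be 2.56 times that in the other genotype. Per ERCC read it would be 1.83 times, and the counting error of the WT reads is again left out. Over all labelling times the ratio of the shares, WT over the other genotype, was 5.37 (2.52 to 13.2) in Tcstv3 and 10.3 (3.75 to 39.4) in Tcstv1. Neither Tcstv gene passed the filter on low counts, so 5 of the 7 members entered the fit.

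Usp17lc had the most reads of the Usp17l genes. WT libraries held 77, 70 and 63 reads at 10 min, 72, 81 and 50 at 20 min and 110, 80 and 68 at 40 min, and Tet2-KO-labelled libraries 9, 6 and 13, then 14, 14 and 14, then 13, 11 and 11. The genotypes were far apart at every labelling time, with the fewest reads in WT at 50 and the most in the other genotype at 14. The log2 difference was -1.82 ± 0.19 (SE) per ERCC read and -2.55 ± 0.17 as a share, and the share in WT was 5.84 times that of the other genotype over all times (4.75 to 7.25).

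Usp17lb had 29, 46 and 23 reads in WT at 10 min, 30, 35 and 22 at 20 min and 29, 42 and 42 at 40 min. In Tet2-KO-labelled libraries the reads were 4, 3 and 0, then 6, 2 and 11, then 3, 7 and 5. No library overlapped between genotypes, and the log2 difference was -2.11 ± 0.30 (SE) per ERCC read and -2.82 ± 0.30 as a share.

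Usp17la lay closest to overlap of the 3 Usp17l genes. WT libraries had 39, 26 and 44 reads at 10 min, 39, 39 and 35 at 20 min and 45, 34 and 43 at 40 min, and Tet2-KO-labelled libraries 8, 12 and 18, then 6, 4 and 10, then 12, 7 and 3. As a share the genotypes were apart at all 3 times, but per ERCC read they overlapped at 10 min, with 7.56 ± 1.42 (SD, n = 3) reads per 100000 ERCC reads in WT and 6.30 ± 3.06 in Tet2-KO-labelled libraries. The log2 difference was -1.29 ± 0.25 (SE) per ERCC read and -2.02 ± 0.23 as a share, the smallest among the members that passed the filter. At 10 min alone it was -0.29 ± 0.40 per ERCC read, against -1.95 ± 0.44 at 20 min and -1.61 ± 0.44 at 40 min. Summed over Usp17la, Usp17lb and Usp17lc, the share was 4.98 to 8.19 in WT and 0.934 to 1.80 in Tet2-KO-labelled libraries.

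Tmem92 had 35, 44 and 68 reads in WT at 10 min, 28, 26 and 37 at 20 min and 29, 24 and 29 at 40 min. Libraries labelled Tet2-KO had 9, 0 and 10, then 1, 11 and 3, then 5, 5 and 4. The genotypes did not overlap at any time, although the 3 Tet2-KO-labelled libraries had an SD close to their mean at 10 min, with 0.308 ± 0.274 (SD, n = 3) RPM, and at 20 min, with 0.259 ± 0.274. The log2 difference was -1.82 ± 0.29 (SE) per ERCC read and -2.55 ± 0.31 as a share. The 5 fitted members thus had differences from -2.77 to -1.29 per ERCC read and from -3.48 to -2.02 as a share. Over all genes tested, 4.15% were called lower per ERCC read and 32.0% as a share (edgeR quasi-likelihood test, adjusted p under 0.05). Since the same contrast chose the members, nothing is read from that comparison.

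Per ERCC read, all Tet2-KO-labelled libraries were below all WT libraries in 4 of the 7 genes at 10 min, in 7 at 20 min and in 6 at 40 min. Among all genes tested, the shares with this order were 2.11%, 6.42% and 3.53%. As a share of gene reads the counts were 5, 7 and 7 of the 7 genes, beside 27.1%, 26.8% and 26.8% of all genes tested. At all 3 times on both scales the order held for Zfp352, Usp17lb, Usp17lc and Tmem92. In all genes tested it held at all 3 times in 1.56% per ERCC read and in 13.9% as a share. These counts also rest on the contrast that chose the genes.

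**Figure D2:**
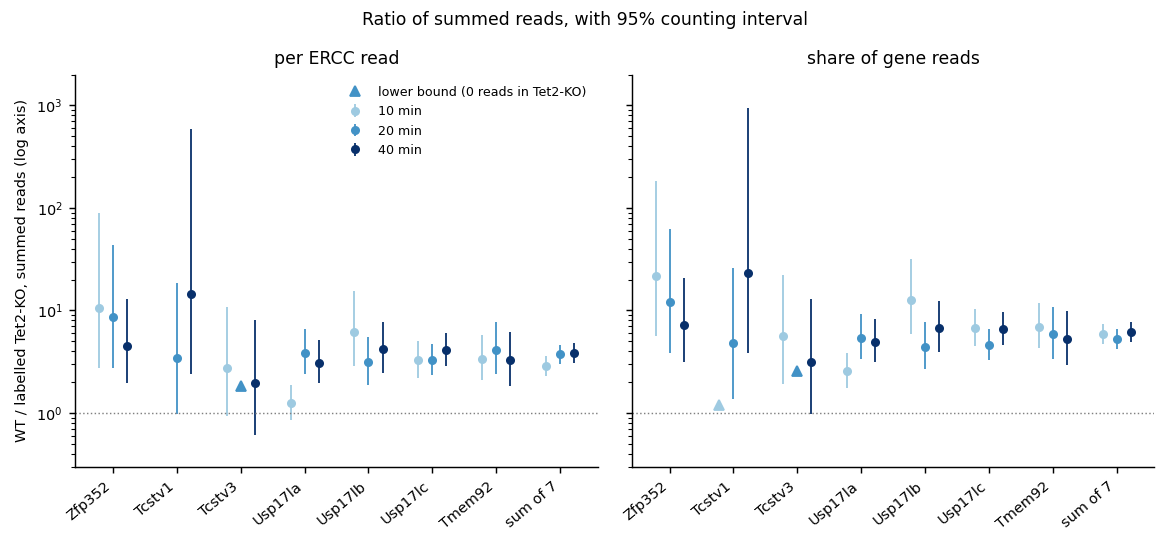
Ratio of summed reads, WT over Tet2-KO-labelled libraries (vertical log axis), for each of the 7 genes and their sum (horizontal axis) at 10, 20 and 40 min of EU, per ERCC read on the left and as a share of gene reads on the right. Points carry 95% counting intervals, and the sum lies between 2.86 and 6.10. Where no read was found in Tet2-KO-labelled libraries, triangles give the ratio with 3 counts set for that group, shown if above 1. The triangles leave out the counting error of the WT reads and are not lower bounds.

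Levels can be compared between genes only per length. In reads per kb of exon per 1000000 gene reads, the mean over the 9 WT libraries was 1.44 ± 0.300 (SD) for Usp17lc, 1.01 ± 0.279 for Usp17lb, 0.763 ± 0.270 for Tmem92 and 0.682 ± 0.111 for Usp17la. It was 0.311 ± 0.0930 for Zfp352, 0.311 ± 0.204 for Tcstv3 and 0.173 ± 0.131 for Tcstv1. Usp17lb, Tmem92 and Usp17la did not differ by more than their spread from the next in this order, nor did Zfp352, Tcstv3 and Tcstv1, while Usp17lc stood above Usp17lb and Usp17la above Zfp352 by more than 1 SD. In Tet2-KO-labelled libraries, Usp17lc was again highest, at 0.247 ± 0.0608, and Tcstv1 lowest, at 0.0163 ± 0.0194. There, no gene differed from the next in the order by more than the larger of their SDs. Exon length was taken from the annotation, and whether reads in introns were counted is not given in the sources used here.

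The labelling time is the axis of the design that did not serve to choose the genes, and it asks how the captured RNA of each gene grew as EU was present for longer. Per ERCC read, all 5 members tested rose from 10 to 40 min in WT (edgeR, adjusted p from 1.9e-22 to 4.46e-05). The same was true of 96.7% of all genes tested, while 0.0100% fell, so a rise is the rule. The log2 rise was 2.74 ± 0.26 (SE) in Usp17lc, 2.65 ± 0.40 in Usp17lb, 2.62 ± 0.36 in Usp17la, 2.47 ± 0.54 in Zfp352 and 1.62 ± 0.39 in Tmem92. The median over all genes tested was 2.26, and Tmem92 was the 1 member below it.

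In Tet2-KO-labelled libraries the members tested were also called higher at 40 min per ERCC read (edgeR, adjusted p from 4.18e-08 to 0.0111), as were 94.7% of all genes tested, while 0.00502% fell. Zfp352, Usp17lb and Tmem92 passed the filter through the WT libraries and had no value when only the libraries compared were fitted, so their calls are given as a description. In that fit Usp17la and Usp17lc kept the call (edgeR, adjusted p under 0.05). The log2 rise was 3.44 ± 1.17 (SE) in Zfp352, 3.13 ± 0.72 in Usp17lb, 2.41 ± 0.43 in Usp17lc, 1.65 ± 0.64 in Tmem92 and 1.30 ± 0.50 in Usp17la, beside a median of 1.996 over all genes tested. For 3 members the call rests on single libraries. Zfp352 lost it without replicate 3 at 40 min (edgeR, adjusted p = 0.140). Tmem92 lost it without replicate 2 at 10 min (edgeR, adjusted p = 0.0920), and Usp17la without replicate 1 at 10 min (edgeR, adjusted p = 0.0664) or replicate 1 at 40 min (edgeR, adjusted p = 0.296).

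As a share of gene reads, which takes out the growth of the whole captured pool, no tested member passed edgeR's test in either genotype, none had an unadjusted p under 0.05, and DESeq2 called 0. In WT 29.5% of all genes tested were called lower and 16.1% higher, and in Tet2-KO-labelled libraries 20.0% lower and 16.5% higher. In Tet2-KO-labelled libraries the 5 members lay between -0.74 and 1.49 on the log2 scale, with 1.49 ± 1.14 (SE) in Zfp352 and 1.12 ± 0.74 in Usp17lb. These values rest on few reads, and Zfp352, Usp17lb and Tmem92 passed the filter through the WT libraries. No absence of change is read from them. The 5 members in WT lay between -0.79 and 0.34 on the log2 scale. Tmem92 was at the lower end, with -0.79 ± 0.41 (SE; edgeR, adjusted p = 0.118) and mean shares of 2.22, 1.51 and 1.28 RPM at 10, 20 and 40 min. With only the libraries compared in the fit it passed the test (edgeR, adjusted p = 0.0392). Tcstv1, outside the filter, had mean shares in WT of 0.0604, 0.254 and 0.412 at the 3 times. In a fit of every gene with a count its log2 rise as a share was 2.65 ± 1.04 (SE; edgeR, adjusted p = 0.0456), from 4 reads at 10 min and 26 at 40 min. Tcstv3 in that fit had -0.76 ± 0.87 (edgeR, adjusted p = 0.599). The feeder genes moved with labelling time on this scale in WT, where 7 of the 9 tested were lower at 40 min, among them Col3a1 at -2.96 ± 0.49 (SE), Acta2, smooth muscle actin, at -2.23 ± 0.16 and Col1a1 at -1.48, and 1 was higher (edgeR, adjusted p under 0.05). Per ERCC read none of them was lower in WT and 5 were higher, and in Tet2-KO-labelled libraries 2 were lower and 1 higher as a share. Their part in the result was not tested.

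Whether the change with labelling time differed between the genotypes was tested as an interaction. None of the 5 members passed it per ERCC read, beside 19.3% of all genes called lower in Tet2-KO-labelled libraries and 0.552% higher, and none passed it as a share, beside 3.36% and 5.89%. DESeq2 also called 0 on both scales, and at an unadjusted p under 0.05 edgeR had 1 member per ERCC read, Usp17la, and 0 as a share. The largest in size per ERCC read was Usp17la, at -1.32 ± 0.60 (SE; edgeR, adjusted p = 0.104), and it passed without replicate 1 of the Tet2-KO-labelled libraries at 40 min (-1.95; edgeR, adjusted p = 0.0265). Zfp352 had 0.98 ± 1.14 per ERCC read and 1.41 ± 1.23 as a share. With standard errors above 1 on the log2 scale, a 2-fold difference in Zfp352 was not detectable at this depth. Usp17lb had standard errors of 0.75 per ERCC read and 0.83 as a share. Zfp352, Usp17lb and Tmem92 passed the filter through the WT libraries, so no absence of a difference is read from their results.

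As a rate, a line with an intercept was fitted to the level on labelling time over the 9 libraries of each genotype. The slope of the summed level was 6.86 ± 0.556 (SE) reads per 100000 ERCC reads per min in WT and 1.70 ± 0.240 in Tet2-KO-labelled libraries, a ratio of 4.03. Among single genes the slope in WT was steepest in Usp17lc, at 2.74 ± 0.383, followed by Usp17la at 1.26 ± 0.135 and Usp17lb at 1.22 ± 0.208. Those of Tmem92, Zfp352, Tcstv1 and Tcstv3 were 0.677 ± 0.0879, 0.508 ± 0.112, 0.329 ± 0.0600 and 0.130 ± 0.0289. In Tet2-KO-labelled libraries all 7 slopes were lower, from 0.640 ± 0.0916 in Usp17lc to 0.0139 ± 0.0193 in Tcstv1. The ratio of slopes was between 3.06 and 4.29 in Tmem92, Zfp352 and the 3 Usp17l genes. No ratio is given for the Tcstv genes, whose slopes in Tet2-KO-labelled libraries changed sign when a pair of times was used. Single libraries at 40 min decide several slopes in Tet2-KO-labelled libraries. That of Usp17la was 0.322 ± 0.167 with all libraries and 0.113 without replicate 1, and that of Zfp352 was 0.137 ± 0.0632 and 0.0568 without replicate 3. That of Tcstv3 was 0.0835 ± 0.0564 with all libraries, 0.0106 without replicate 1 and 0.128 without replicate 3, and that of Tcstv1 was 0.0275 without replicate 1 or replicate 3 and -0.0037 without replicate 2.

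**Figure D3:**
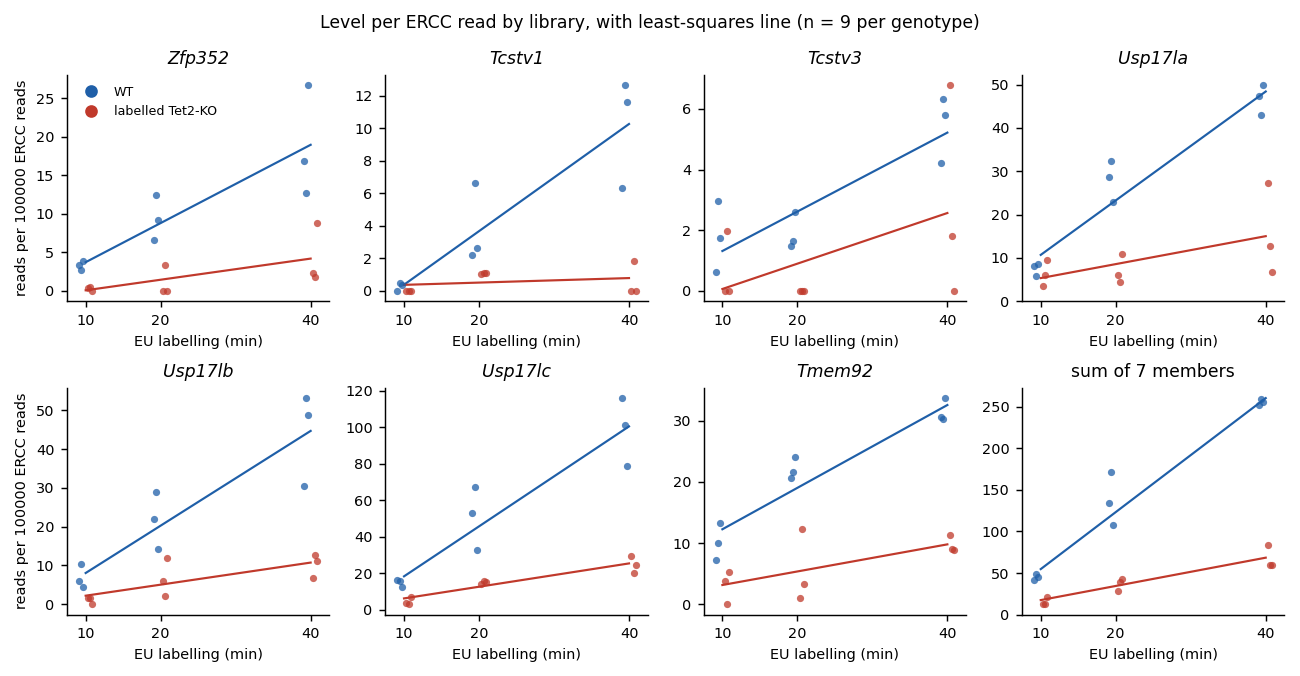
Reads per 100000 ERCC reads (vertical axis) by EU labelling time (horizontal axis, min) for each of the 7 genes and their sum. Each point is a library and each line the least-squares fit with an intercept over the 9 libraries of a genotype. The summed level at 40 min was 252 to 259 in WT and 59.7 to 83.8 in Tet2-KO-labelled libraries.

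The Zscan4 cluster, the better known genes of the same state, was also lower in Tet2-KO-labelled libraries in all 6 genes on both scales (edgeR, adjusted p under 0.05), beside 4.15% of all genes tested per ERCC read and 32.0% as a share. The cluster, like the other gene lists, was chosen with earlier results of these data known, so these calls are given as a description. The summed share of its 6 genes in WT was 44.3 ± 4.04 (SD, n = 3) RPM at 10 min and 27.1 ± 1.53 at 40 min, while that of the 7 members was 9.65 ± 0.764 and 10.4 ± 0.326. The Zscan4 sum in the other genotype was 6.27 ± 0.345 and 3.49 ± 0.306. As a share in WT, 3 of the 6 Zscan4 genes and none of the 5 members fell past the test, beside 29.5% of all genes tested. This difference between the groups was not itself tested. The 3 genes, Zscan4a, Zscan4c and Zscan4d, had the most reads of the cluster, with means of 122, 127 and 61 per library. Tmem92, at -0.79 ± 0.41 (SE) on the log2 scale, lay below Zscan4a at -0.74 ± 0.15 and Zscan4d at -0.67 ± 0.18, but not below Zscan4c. The other 4 members tested had positive values. The part of read depth in these calls was not tested.

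A list of 52 other genes reported for the 2-cell-like state, none of them a member or a Zscan4 gene, was examined in the same fit. It was drawn up with earlier results of these data known, so its calls are given as a description. It also holds relatives and neighbours of members, among them Usp17le, Gm21761 and Usp17ld, whose coding sequence is 98.4% identical to that of Usp17lc. Per ERCC read, 17 of the 29 that passed the filter were lower in Tet2-KO-labelled libraries, 9 were higher and 3 did not pass the test, beside 4.15% lower and 80.5% higher over all genes tested. As a share, 21 were lower, 7 higher and 1 did not pass, beside 32.0% and 24.6%. The median log2 difference of the list was -0.96 per ERCC read and -1.70 as a share, beside 0.70 and -0.04 over all genes tested and -1.82 and -2.55 over the 5 members. The list is thus split, with genes on both sides. Of the 23 genes that did not pass, 4 had no read in any library and none had more than 15 in a library.

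Of the 6 with the most reads, 3 rose on both scales. Zfp951, a zinc finger gene, was higher by 2.11 ± 0.05 (SE) on the log2 scale per ERCC read and by 1.38 ± 0.02 as a share, and Calcoco2, an autophagy receptor, by 1.43 ± 0.05 and 0.69 ± 0.02. Tdpoz1 had the largest rise of the list, 3.46 ± 0.12 per ERCC read and 2.72 ± 0.13 as a share. Ddit4l turned with the scale, at 0.41 ± 0.10 per ERCC read and -0.32 ± 0.09 as a share. Platr31, a non-coding RNA, and Gm8994 fell, with log2 differences of -1.33 ± 0.15 and -1.51 ± 0.16 per ERCC read and -2.05 ± 0.13 and -2.23 ± 0.17 as a share. All these calls passed the test on their scale (edgeR, adjusted p of at most 0.00373). Among genes named after their values were seen, Trim43a (2.53 ± 0.42 and 1.80 ± 0.41), Trim43b, Obox3 and Obox6 were also higher on both scales.

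**Figure D4:**
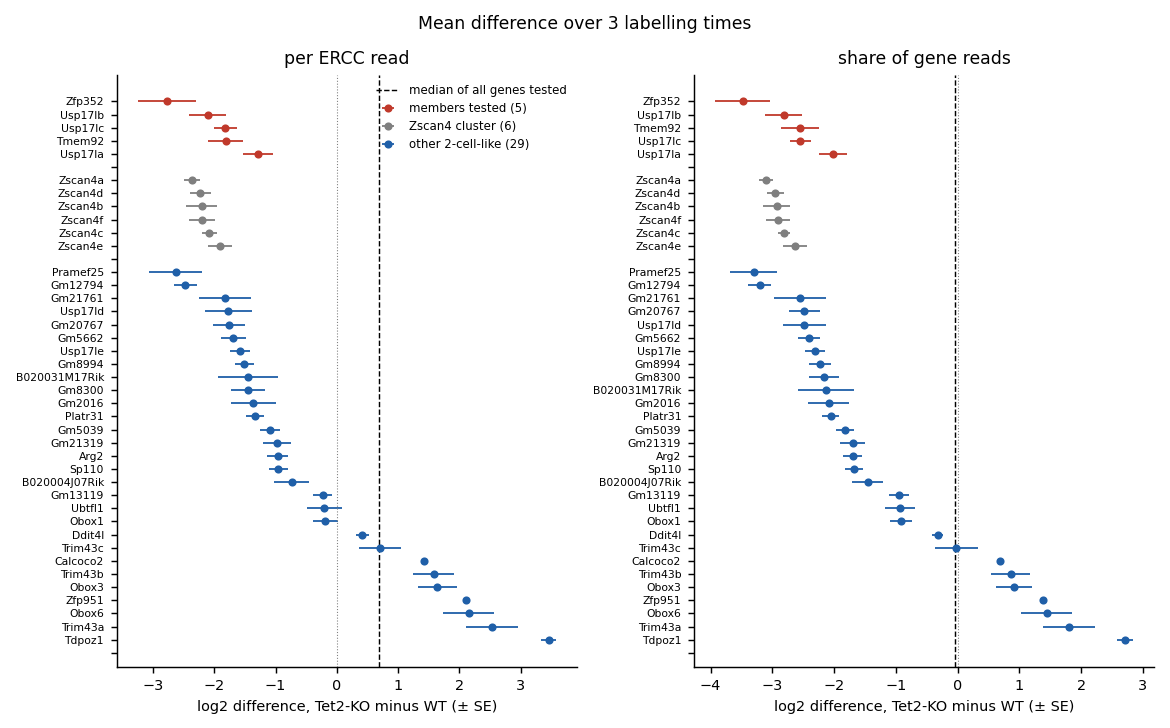
Log2 difference between Tet2-KO-labelled libraries and WT, averaged over the 3 labelling times (horizontal axis, with SE), for the 5 members tested, the 6 Zscan4 genes and the 29 other 2-cell-like genes tested (rows), per ERCC read on the left and as a share on the right. The dashed line is the median of all genes tested, at 0.70 and -0.04. Members and Zscan4 genes lie below 0, and the other genes range from -2.63 to 3.46 on the left and from -3.30 to 2.72 on the right.

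Genes known to hold down or promote the state were given by a further list of 26, all of which were tested. Per ERCC read, 24 were higher in Tet2-KO-labelled libraries and 2 did not pass the test, beside 80.5% higher and 4.15% lower over all genes tested, and their median was 0.82 beside 0.70. As a share, 14 were higher, 5 lower and 7 did not pass, beside 24.6% higher and 32.0% lower, and their median was 0.08. The 6 with the most reads were Ncl, Usp7, Mga, Rybp, Ctcf and Dnmt1. As a share, Ncl, nucleolin, differed by 0.13 ± 0.01 (SE), Usp7, a deubiquitinase, by 0.14 ± 0.01, Ctcf, an insulator protein, by 0.11 ± 0.02 and Mga, a repressor subunit, by 0.05 ± 0.01, and all 4 passed the test (edgeR, adjusted p of at most 0.000182). Rybp, a Polycomb subunit, at -0.02 ± 0.01 and Dnmt1, the maintenance DNA methyltransferase, at 0.01 ± 0.02 did not pass (edgeR, adjusted p = 0.154 and 0.658). These 6 were picked by their reads, and over all 26 the differences as a share ranged from -0.71 to 0.34 on the log2 scale. Their part in the differences of the members was not tested.

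The surroundings of the members were compared with them. Within 500 kb of any member, 38 other genes passed the filter, of which 5 were called lower and 24 higher per ERCC read (edgeR, adjusted p under 0.05), beside 4.15% and 80.5% of all genes tested. All 5 that were lower belong to the list of other 2-cell-like genes. Of the 33 neighbours outside it, none was called lower and 24 were called higher per ERCC read, and 9 and 7 as a share, beside 32.0% and 24.6% of all genes tested. The stretches differed. Around Tcstv1, 15 genes were tested, 3 of them in the 2-cell-like lists, and as a share 9 were lower and 1 higher. Their median log2 difference was -0.40 as a share and 0.34 per ERCC read, beside -0.04 and 0.70 over all genes tested. Around Tmem92, 3 of 18 were lower and 6 higher as a share, with medians of 0.02 and 0.76. Within 1000 kb, 2 of the 85 neighbours outside the list were called lower per ERCC read and 70 higher.

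Zfp352 stood alone, with no tested gene within 500 kb. The nearest were Dmrta1, at 524 kb, and Elavl2, at 1025 kb, and both were higher per ERCC read, by 2.02 ± 0.41 (SE) and 0.76 ± 0.05 on the log2 scale. As a share Dmrta1 was higher by 1.33 ± 0.39, and Elavl2, at 0.03 ± 0.02, did not pass (edgeR, adjusted p = 0.231). Tmem92 lay 72.7 kb from Gm11541 and 153.5 kb from Col1a1, a collagen gene, with log2 differences of 0.78 ± 0.17 and 1.14 ± 0.13 per ERCC read. As a share Gm11541 differed by 0.05 ± 0.16 and Col1a1 by 0.40 ± 0.11.

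On chromosome 13, Gm21761, at 17.3 kb from Tcstv1, was lower, at -1.82 ± 0.43 (SE) on the log2 scale per ERCC read, while Zfp131, at 102.5 kb on the other side, was higher by 0.60 ± 0.05 and as a share lower, at -0.13 ± 0.02 (edgeR, adjusted p = 7.60e-06). Its rise per ERCC read was below the median of 0.70 over all genes tested. Gm20900, at 12.2 kb from Tcstv3, was higher by 0.73 ± 0.12 per ERCC read and at 0.01 ± 0.11 as a share. On chromosome 7, Usp17la and Usp17lb are each other's nearest tested gene, 14.4 kb apart. Usp17le, at 62.8 kb from Usp17lb, and Usp17ld, at 162.6 kb from Usp17lc, were lower, at -1.58 ± 0.16 and -1.77 ± 0.38 per ERCC read. On the other side of the members lay the olfactory receptor genes Olfr691, at 472.8 kb from Usp17la, and Olfr643, at 578.9 kb from Usp17lc. Both were higher per ERCC read, by 0.88 ± 0.38 and 0.95 ± 0.13. As a share they were at 0.16 ± 0.42 and 0.22 ± 0.11 and did not pass (edgeR, adjusted p = 0.765 and 0.0877). Usp17lc and Usp17ld share much of their sequence, as given above.

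Likeness between the 5 fitted members across libraries was described by correlation. The Pearson correlation of log2 shares between pairs of members was 0.69 to 0.89 over the 18 libraries (median 0.84, 10 pairs). These libraries span the difference between genotypes that chose the members, and the correlation follows from that choice. After the mean of each group was subtracted it was -0.57 to 0.33 (median -0.20). Both are descriptions over libraries that share a depth and a normalization.

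The 5 genes whose log2 share was most like the mean of the members over the 18 libraries were Trh, 2410018L13Rik, Mtrex, A730082K24Rik and Zfp42, with Pearson correlations of 0.992 to 0.993. Trh, which encodes thyrotropin-releasing hormone, had 1339 to 1724 reads in WT libraries and 129 to 214 in those labelled Tet2-KO. The non-coding 2410018L13Rik went from 2459 to 3208 reads in WT to 105 to 150, and A730082K24Rik from 440 to 594 to between 65 and 90. Mtrex, an RNA helicase of the nuclear exosome pathway, had 10108 to 12638 and 3531 to 4314 reads, and Zfp42, a marker of naive pluripotency known as Rex1, 10658 to 12190 and 1850 to 2361. These genes carry far more reads than the members, and the likeness rests on the difference between genotypes that chose the members.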

How the data were processed

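Nascent RNA was captured after EU labelling by biotin click chemistry and streptavidin and sequenced. Per the methods and the submitters' processing notes, the authors trimmed reads with Trimmomatic 0.39, aligned them with HISAT2 2.2.1 to mm10 with GENCODE M19 and ERCC sequences, and counted reads per gene with HTSeq 0.12.4. The deposited counts are not normalized, and the feature type, strand setting and overlap mode are not given in the sources used here. Names and positions came from GENCODE M21, which held 54409 of 54446 gene identifiers.

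Genes were kept by filterByExpr (minimum count 10), and 1 group per genotype and labelling time was fitted with edgeR's quasi-likelihood test (R 4.3.3, edgeR 4.0.16), over all 18 libraries, with ERCC totals or reads on all genes as library sizes and Benjamini-Hochberg adjustment over 19910 genes. Between 17931614 and 23069143 gene reads per library left the members with 0 to 110 reads each. Standard errors are the log2 difference divided by the square root of F, and are unreliable near 0. Levels are reads per 100000 ERCC reads or per 1000000 gene reads, without a pseudocount, and log2 shares for correlations used edgeR's prior count of 2.

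Alternatives were other ERCC scales, TMM, DESeq2 1.42.0, filters, a replicate block, only the libraries compared, each library left out, other slopes and a 1000 kb window. Same-numbered replicates did not deviate together (median correlation -0.007). The genotype contrast averaged over labelling times, as a share, was tested on simulated counts with the same spread set for every gene. The fits per ERCC read, the changes with labelling time and the interaction were not simulated. The members and all gene lists were chosen with earlier results of these data known. Named were the members, at most 6 genes per list by mean count, the 5 most alike and the nearest tested genes. Trim43a, Trim43b, Obox3, Obox6 and Col3a1 fall outside this rule and were named after their values were seen. Protein sequences were not analysed here.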

Additional observations from a re-analysis of the deposited data

Results flagged for a closer look

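Groups held 3 libraries each, too few to look for single outlying libraries. The results below were marked because the change from 10 to 40 min of EU differed between the genotypes by edgeR's interaction test, and all are log2 values in Tet2-KO-labelled libraries minus WT. No member was among them.

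Of the other 2-cell-like genes, Calcoco2 was at -0.38 ± 0.13 (SE; edgeR, adjusted p = 0.0234) and Zfp951 at -0.34 ± 0.13 (edgeR, adjusted p = 0.0442) per ERCC read, close to the median of -0.29 over all genes tested. Tdpoz1 was at 1.18 ± 0.34 as a share (edgeR, adjusted p = 0.0228), beside a median of 0.06. Its share was 5.61 to 6.09 RPM (reads per 1000000 gene reads) at 10 min and 10.6 to 12.9 at 40 min in Tet2-KO-labelled libraries, and 0.809 to 2.05 and 0.997 to 1.36 in WT. Zscan4f was at -1.46 ± 0.55 per ERCC read (edgeR, adjusted p = 0.0431). All 4 calls were lost in at least 1 of the alternatives run, with highest adjusted p of 0.12 in Calcoco2, 0.137 in Zfp951, 0.209 in Tdpoz1 and 0.169 in Zscan4f (edgeR or DESeq2).

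Among the regulators, the values per ERCC read were -0.61 in Rybp, -0.48 in Ctcf, -0.44 in Mga, -0.39 in Ncl, -0.37 in Dnmt1 and -0.32 in Usp7 (edgeR, adjusted p from 0.000123 to 0.0425). As a share they were -0.26 in Rybp, -0.13 in Ctcf and -0.094 in Mga (edgeR, adjusted p from 6.81e-07 to 0.0369). Over the alternatives run, both calls in Rybp and the calls per ERCC read in Ctcf, Mga and Ncl kept their side of the threshold. The highest adjusted p (edgeR or DESeq2) was 0.105 in Dnmt1 and 0.148 in Usp7 per ERCC read, and 0.117 in Ctcf and 0.153 in Mga as a share.

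Marker genes of other lists also differed. Of the 9 feeder genes tested, 5 were higher and 1 lower on each scale. Of the 11 mES genes tested, 6 were lower and 0 higher per ERCC read, and 0 lower and 1 higher as a share. Over all genes tested 19.3% were lower and 0.552% higher per ERCC read, and 3.36% and 5.89% as a share. Values are given for the genes named by mean count. Of the feeder genes, Acta2 was at 2.22 ± 0.29 (SE) per ERCC read and 2.56 ± 0.25 as a share, Col1a1 at 1.19 ± 0.31 and 1.53 ± 0.27 and Fn1 at -0.52 ± 0.12 and -0.18 ± 0.03 (edgeR, adjusted p from 7.24e-10 to 0.00295), and these calls were kept in the alternatives run. Of the genes of mES cells, Klf4 was at -0.39, Esrrb at -0.38, Nanog at -0.36 and Tfcp2l1 at -0.32 per ERCC read and Zfp42 at 0.18 as a share (edgeR, adjusted p from 0.00370 to 0.0377). Each of these 5 calls was lost in at least 1 alternative, with a highest adjusted p (edgeR or DESeq2) of 0.106, 0.0708, 0.0987, 0.146 and 0.0562.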

How the results depend on the processing

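The differences between genotypes in the 5 fitted members kept their direction in every alternative run. With single libraries left out they ranged from -2.26 to -1.63 per ERCC read and -2.97 to -2.37 as a share in Tmem92, from -1.49 to -1.17 and -2.20 to -1.91 in Usp17la, from -2.33 to -1.94 and -3.03 to -2.64 in Usp17lb, from -1.95 to -1.74 and -2.66 to -2.48 in Usp17lc, and from -4.12 to -2.58 and -4.56 to -3.30 in Zfp352. No member had 10 counts in every library, so that filter gave no value for them. Left-out libraries gave 4 to 5 members called for the rise in Tet2-KO-labelled libraries and 0 to 1 for the interaction, both per ERCC read. With only the libraries compared, 2 of the 2 members with a value were called for the rise in Tet2-KO-labelled libraries per ERCC read, 3 having no value, and 1 in WT as a share. With every gene that had a count, 1 was called in WT as a share. The replicate number did not pair the samples, and with the replicate block 5 members were called for each rise per ERCC read and 0 for each other change. Among the other 2-cell-like genes, 10 counts in every library left 4 lower and 4 higher per ERCC read and 7 and 3 as a share, by fewer genes tested. The summed slope was 9.30 in WT and 2.06 in Tet2-KO-labelled libraries from 10 and 20 min only, and 5.89 in WT from 20 and 40 min only. From 10 and 20 min, single slopes in WT were 2.04 in Usp17la, 1.19 in Tmem92 and 0.0130 in Tcstv3, and in the other genotype 0.0835 in Usp17la, 0.568 in Usp17lb, 1.04 in Usp17lc, 0.0808 in Zfp352, 0.107 in Tcstv1 and -0.0663 in Tcstv3. From 20 and 40 min those of Tet2-KO-labelled libraries were 0.171 in Usp17lb, -0.0234 in Tcstv1 and 0.143 in Tcstv3, and through the origin 0.0217 in Tcstv1. All these single slopes are more than 1.5 times from those over 3 times, while the summed slopes are within 1.5 times. Both Tcstv slopes of Tet2-KO-labelled libraries change sign. With left-out libraries the summed slope ranged from 6.70 to 7.01 in WT and from 1.44 to 1.85 in Tet2-KO-labelled libraries. Within 1000 kb, 70 neighbours were higher per ERCC read, and 31 were lower and 20 higher as a share. Over all genes, interaction calls lower per ERCC read were 5831 without WT replicate 2 at 10 min, 2181 without WT replicate 3 at 10 min, 2010 without WT replicate 2 at 40 min, 2007 without Tet2-KO-labelled replicate 3 at 10 min and 1742 without replicate 2 at 40 min, against 3835, and as a share TMM gave 1219 lower and 774 higher and DESeq2 1344 and 778, against 668 and 1173. Over all genes 10 counts in every library left 460 lower per ERCC read, against 827.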
